A study of Rattus norvegicus with 47 samples.

Results

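The genes described here encode the proteins of the mitochondrial ribosome. They were taken as every gene in both count tables whose rat symbol begins with Mrpl or Mrps followed by a number, which gave 70 of 15319 genes: 43 named for the large subunit (Mrpl) and 27 for the small subunit (Mrps). Their transcripts were counted by RNA-seq in punches of striatal and cerebellar tissue from Sprague-Dawley rats of both sexes, which had either breathed PCB52 (2,2′,5,5′-tetrachlorobiphenyl) through a nose-only system for 4 h a day over 28 days or been sham-exposed, and the males were 39 and the females 42 days old when assigned to a group. No rat carried a genetic change, per the labels, and each animal number gave a striatal library, a cerebellar library or both. In striatum there were 4 sham males, 6 sham females, 6 PCB52 males and 6 PCB52 females, and in cerebellum 5, 6, 5 and 6. Animals are named below by their number. The design compares exposure within each region and sex, the sexes, and the regions.

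The mitochondrial ribosome translates the messenger RNAs of mitochondrial DNA, which in mammals encode subunits of the respiratory chain and of ATP synthase. Its ribosomal RNA is made inside the mitochondrion, whereas all of its proteins are encoded in the nucleus, translated on cytosolic ribosomes and imported. Low symbol numbers mark proteins with a counterpart in bacterial ribosomes and high numbers mark, for the most part, proteins added in mitochondria. Symbols do not always give the subunit: Mrps30 and Mrps18a lie in the large subunit of the mammalian particle.

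Of the 70 genes, 23 Mrpl genes carried a number up to 36 and 20 a higher one, and 15 Mrps genes a number up to 21 and 12 a higher one. The reference gene list held 78 protein-coding genes that fit the symbol rule. The other 8, Mrpl28, Mrpl33, Mrpl39, Mrps6 and the copies Mrpl41l1, Mrpl42l1, Mrps21l and Mrps36l1, were not analysed here. All 70 passed the filter on low counts in every comparison, and the lowest count of any of them was 52 in a striatal and 58 in a cerebellar library. Library totals ran from 5684508 to 8914523 counts in striatum and from 6524400 to 15865054 in cerebellum. Together the 70 genes took 0.224% to 0.396% of the counts of a striatal library (median 0.266%) and 0.240% to 0.602% of a cerebellar one (median 0.328%). Named pseudogenes exist for 22 of the 70, among them Mrps18b, Mrpl54, Mrps21, Mrpl45 and Mrpl1. No label says how reads were shared between such copies, which leaves the levels of these 22 uncertain.

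Regional identity matched the labels, though striatum PCB52 female 22 also held cerebellar markers. Drd1, a dopamine receptor of striatal projection neurons, lay at 196 to 467 CPM (counts scaled to library size) in striatum and at 0.406 to 9.43 in cerebellum. Gabra6, a GABA-A receptor subunit of cerebellar granule cells, lay at 842 to 1203 CPM in cerebellum and at 0 to 67.6 in striatum (median 0.307). Its striatal maximum was in PCB52 female 22. That library had a list mean (mean log2 CPM) of 5.65 for cerebellar granule and Purkinje cell markers. The next highest striatal library, PCB52 female 14, had 2.86. Striatum sham male 3 and cerebellum sham males 9 and 11 and sham females 8 and 10 held transcripts of both sexes, and striatum sham females 6 and 12, PCB52 male 19, PCB52 females 14, 20 and 22 and cerebellum sham male 1 held markers of a neighbouring tissue. Choroid plexus markers had a list mean (mean log2 CPM) of 7.66 in striatum PCB52 female 20 and 5.26 in cerebellum sham male 1. Cerebellum PCB52 female 16 stood apart in another list, with a mean of 5.15 for markers of thalamus, septum and hypothalamus where the third highest cerebellar library, sham female 12, had 3.26 and the lowest, PCB52 male 15, had 2.06, and it stays in the fits that leave out libraries with markers of another tissue. Striatum PCB52 female 24 also stays in those fits. It had a list mean of 3.73 for cortical excitatory neuron markers and the lowest striatal projection neuron list mean, 8.71. In bulk tissue, fewer cells of a type and less RNA per cell cannot be told apart.

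The mitochondrial ribosomal genes were high or low together from library to library. Their list mean ran from 4.78 in striatum PCB52 female 14 to 5.71 in striatum sham female 12, and from 4.91 in cerebellum sham male 1 to 6.43 in cerebellum PCB52 male 23. Striatum sham female 12 stood apart from the other striatal libraries, the next highest being sham male 9 at 5.39. In cerebellum, PCB52 males 15 and 23 had list means of 6.10 and 6.43 and PCB52 females 16 and 20 of 6.05 and 6.14, while the other 18 cerebellar libraries reached at most 5.67. Of the 70 genes, 62 had their highest striatal CPM in sham female 12, and 60 had their highest cerebellar CPM in PCB52 male 23. The lowest CPM fell in striatum PCB52 female 14 for 34 genes, and in cerebellum sham male 1 for 33 and PCB52 female 14 for 25.

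**Figure D1:**
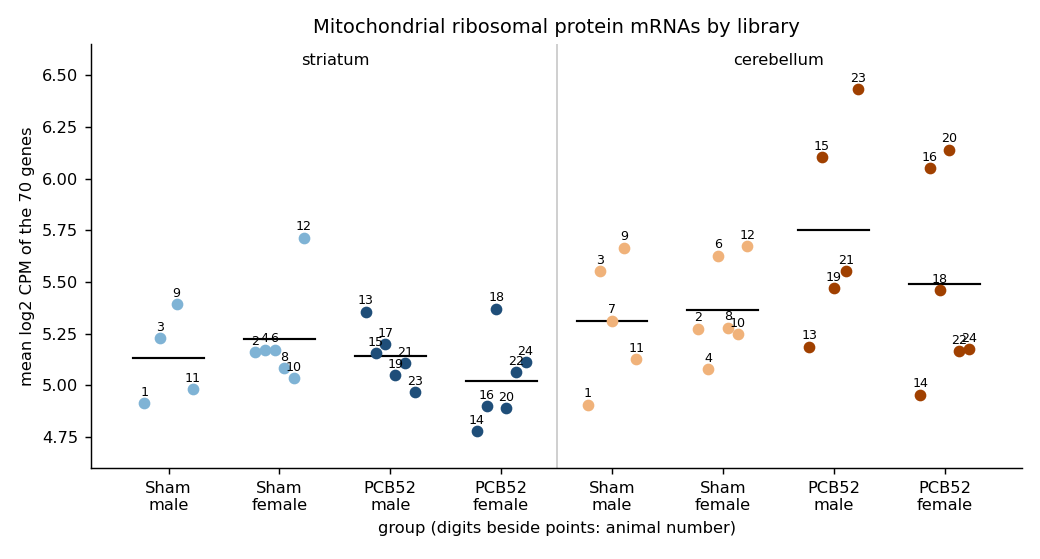
Mean log2 CPM of the 70 mitochondrial ribosomal protein genes (y axis) in each of the 44 libraries, by region, treatment and sex (x axis). Digits are animal numbers and bars are group means. Striatum sham female 12 lies at 5.71, and cerebellum PCB52 males 15 and 23 and females 16 and 20 lie at 6.05 to 6.43, above the other 18 cerebellar libraries.

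The 2 subunits, split by symbol alone, varied alike. The Mrpl list mean exceeded the Mrps one by 0.03 to 0.19 in the striatal libraries (median 0.07) and by 0.07 to 0.23 in the cerebellar ones (median 0.12). Genes for the cytosolic ribosome, which makes these proteins before import, followed nearly the same order of libraries. The 74 cytosolic ribosomal protein genes had list means of 9.20 to 9.82 in the 4 high cerebellar libraries and at most 8.66 in the other 18, and of 8.99 in striatum sham female 12. Nuclear genes for oxidative phosphorylation subunits, the machinery that mitochondrial translation helps to build, also had their highest list mean in the same libraries, 8.44 in cerebellum PCB52 male 23 and 7.61 in striatum sham female 12. The cytosolic list spread more widely in cerebellum, from 7.56 to 9.82, than the mitochondrial one. The 4 high cerebellar libraries also had the lowest TMM scaling factors of all 44 libraries, 0.891 to 0.946, the next being 0.967 in striatum PCB52 female 18. What sets these 4 libraries and striatum sham female 12 apart, the thalamic, septal and hypothalamic markers of female 16 included, was not tested.

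**Figure D2:**
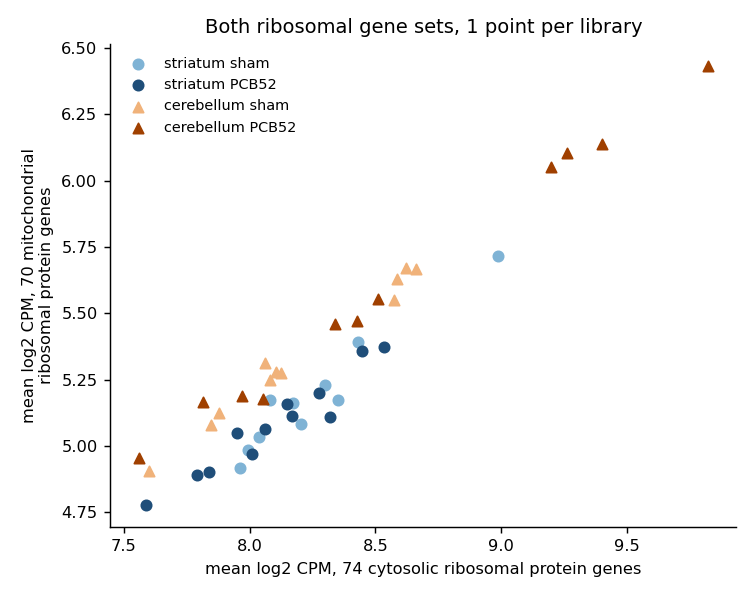
Mean log2 CPM of the 70 mitochondrial ribosomal protein genes (y axis) against that of the 74 cytosolic ribosomal protein genes (x axis), 1 point per library, coloured by region and treatment. The points of both regions form bands that climb together, with the 4 high cerebellar libraries at 9.20 to 9.82 on the x axis and 6.05 to 6.43 on the y axis.

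Genes differed in how far they followed this pattern. The ratio of the highest to the lowest CPM over the 22 libraries of a region had a median of 2.09 in striatum and 3.17 in cerebellum. Mrps5, a core small-subunit protein with a bacterial counterpart, varied least in both regions, by 1.38 times in striatum and 1.31 times in cerebellum. Mrps2, which shares that bacterial ancestry, varied by 1.53 and 1.49 times, and Mrpl38 by 1.44 and 1.73 times. At the other end, Mrpl42 ran from 18.8 to 116 CPM in cerebellum (6.18 times), Mrpl30 from 39.0 to 212 CPM, and Mrpl54 from 17.8 to 94.3 CPM. Mrpl23 varied most in striatum, from 14.4 to 48.0 CPM (3.34 times).

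Since the genes varied together, the letters at their start sites were read from RefSeq promoter windows of the assembly GRCr8, which cover 250 bases before to 50 after each start. Their coordinates are of GRCr8, whereas the submitters' processing notes name rn6 for the reads. A window was found for 56 of the 70 genes. Searched on both strands were CCGGAAG, a core bound by ETS factors such as GABP, GCATGCG, the core of the site of the respiratory factor NRF1, which overlaps its own reverse complement, and AAGATGG, a start-site element bound by YY1. CCGGAAG stood in 20 of 56 windows (35.7%), against 14.4% of the windows of all genes in the count tables. AAGATGG stood in 15 (26.8%, against 7.63%) and GCATGCG in 6 (10.7%, against 5.16%). At least 1 of the 3 was present in 32 (57.1%, against 24.3%). AAGATGG lay downstream of the start on the gene's own strand in 11 (19.6%, against 2.57%), a count made after the positions were seen. These are matches of letters, not sites shown to be bound.

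The windows of 3 genes are printed 5′ to 3′ on the gene's strand, with matches in capitals: Mrps18b, on chr20:2842756-2843055 (plus strand), the only gene with all 3 kinds; Mrpl46, on chr1:142116981-142117280 (minus strand), which shares its start region with Mrps11; and Mrps5, on chr3:135274083-135274382 (plus strand), the least variable gene, with none.
Mrps18b: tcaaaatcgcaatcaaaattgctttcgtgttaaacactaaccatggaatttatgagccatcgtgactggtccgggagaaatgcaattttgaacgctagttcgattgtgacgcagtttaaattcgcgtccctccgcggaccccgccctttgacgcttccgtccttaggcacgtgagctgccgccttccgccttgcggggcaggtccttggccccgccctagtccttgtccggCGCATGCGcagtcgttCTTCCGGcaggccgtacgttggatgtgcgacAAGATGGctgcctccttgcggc
Mrpl46: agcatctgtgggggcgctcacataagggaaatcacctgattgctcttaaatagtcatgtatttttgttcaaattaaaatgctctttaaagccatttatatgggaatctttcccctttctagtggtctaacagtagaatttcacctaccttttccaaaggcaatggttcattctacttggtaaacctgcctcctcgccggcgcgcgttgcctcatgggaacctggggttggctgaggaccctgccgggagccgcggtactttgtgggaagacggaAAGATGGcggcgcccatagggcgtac
Mrps5: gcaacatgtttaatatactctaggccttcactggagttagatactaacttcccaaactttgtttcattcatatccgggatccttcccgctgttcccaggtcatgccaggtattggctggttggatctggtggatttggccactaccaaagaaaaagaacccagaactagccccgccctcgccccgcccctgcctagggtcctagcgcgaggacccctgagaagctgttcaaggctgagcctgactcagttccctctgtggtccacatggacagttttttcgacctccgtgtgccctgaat
In the Mrps18b window, CGCATGCG holds GCATGCG on both strands, CTTCCGG is the reverse complement of CCGGAAG and spans the start, and AAGATGG begins 28 bases downstream, counting the start as 0. In Mrpl46 AAGATGG begins at base 24. That no letters of the Mrps5 window match says only that these 3 runs are not there.

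Some start sites lay near that of a neighbour. For 19 of the 56 genes with a window another gene starts within 1000 bases on the opposite strand, the farthest being Pnpla7, 996 bases from Mrpl41. The share among all genes was not counted, so whether 19 is many is not known. Mrpl46 and Mrps11 start 234 bases apart, Mrpl47 faces Ndufb5, a complex I subunit gene, at 244 bases, Mrpl49 faces Fau, which encodes a cytosolic small-subunit ribosomal protein, at 186, and Mrps27 faces Ptcd2 at 91. Whether counting used strand is unknown from the labels, and reads from such overlapping or facing genes may not have been told apart.

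The comparison of regions gave the clearest differences among these genes. In sham animals 26 of the 70 (37.1%) passed an adjusted p of 0.05 in edgeR's quasi-likelihood test, 24 lower and 2 higher in striatum. Among all 12446 genes tested 69.8% passed, 35.5% lower and 34.3% higher in striatum. The median log2 difference was -0.21 over the 70 genes and -0.03 over all genes. The sham count was 40 of 70 with limma (33 lower, 7 higher) and also without the libraries whose cytosolic ribosomal list mean exceeded 8.8 (36 lower, 4 higher), and 53 with that mean as a covariate (41 lower, 12 higher). In PCB52-exposed animals 54 of the 70 (77.1%) were lower in striatum and 0 higher, against 76.9% of all genes, 40.4% lower and 36.5% higher, with medians of -0.67 and -0.04. Without the libraries above 8.8 the PCB52 count was 39 of 70, 34 lower and 5 higher, with a median of -0.24. With the cytosolic list mean as a covariate it was 53, 41 lower and 12 higher, again with a median of -0.24, and with limma 48, 47 lower and 1 higher. All 24 genes lower in the striatum of sham animals were also lower in PCB52 animals, and 30 more passed in PCB52 animals alone. Passing in 1 treatment and not in the other does not show that the treatments differ; that difference is tested below.

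**Figure D3:**
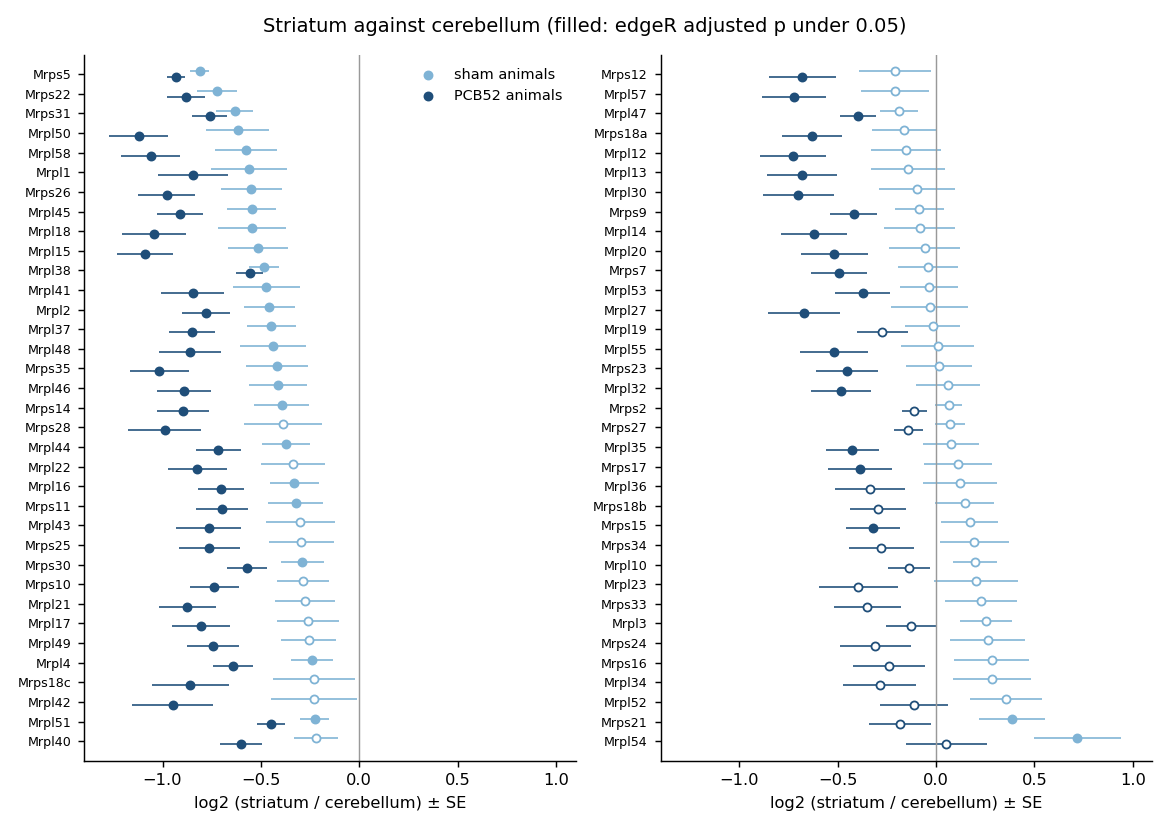
Log2 difference of striatum from cerebellum with its standard error (x axis) for each of the 70 genes (y axis), in sham animals (light) and PCB52 animals (dark). Filled points have an edgeR adjusted p under 0.05. Mrps5 lies at -0.81 and -0.93, and Mrpl54 and Mrps21 are the genes that passed as higher in striatum in sham animals.

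Mrps5 was the most clearly separated. In sham animals its level ran from 38.8 to 49.3 CPM in striatum (median 47.5, n = 10) and from 74.6 to 92.1 CPM in cerebellum (median 79.4, n = 11), and in PCB52 animals from 41.7 to 53.5 CPM (median 45.9, n = 12) and from 78.7 to 97.5 CPM (median 89.0, n = 11). No striatal library reached the lowest cerebellar one. The log2 difference was -0.81 ± 0.05 (SE) in sham animals, 1.75-fold lower in striatum (edgeR adjusted p = 1.13e-18), and -0.93 ± 0.04 in PCB52 animals (edgeR adjusted p = 1.05e-21).

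Of the small-subunit proteins found only in mitochondrial ribosomes, Mrps22, Mrps31 and Mrps26 were also lower in striatum. Mrps22 ran in sham animals from 17.9 to 29.9 CPM in striatum (median 23.2, n = 10) and from 33.8 to 47.2 CPM in cerebellum (median 38.6, n = 11), with no overlap and a log2 difference of -0.72 ± 0.10 (SE, edgeR adjusted p = 6.22e-08). Mrps31 ran from 14.7 to 24.1 CPM in striatum and 25.1 to 33.4 CPM in cerebellum, again without overlap, and differed by -0.63 ± 0.10. For Mrps26 the sham ranges of 37.6 to 67.2 CPM in striatum and 53.9 to 86.6 CPM in cerebellum overlapped, and the difference was -0.55 ± 0.16 (SE, edgeR adjusted p = 0.00191). In PCB52 animals these 3 genes differed by -0.88, -0.76 and -0.98, and Mrps26 by -0.50 without the libraries above 8.8. PCB52 females 16 and 20 and males 15 and 23 held the 4 highest cerebellar values of Mrps26, 112, 127, 152 and 169 CPM, against 53.6 to 82.5 CPM in the other 7 PCB52 animals.

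Among large-subunit genes lower in striatum in both treatments, the largest sham differences were those of Mrpl50, Mrpl58, Mrpl1 and Mrpl45. Mrpl58, a peptidyl-tRNA hydrolase built into the large subunit that frees stalled ribosomes, ran from 24.9 to 52.1 CPM in striatum (median 30.4) and 32.2 to 60.6 CPM in cerebellum (median 44.2) in sham animals, a difference of -0.58 ± 0.16 (SE, edgeR adjusted p = 0.00149). Of the 10 striatal libraries, only sham female 12 reached into the cerebellar range. Mrpl50, a mitochondria-specific protein, had medians of 16.7 and 23.2 CPM and a difference of -0.62 ± 0.16 (edgeR adjusted p = 0.000707). Mrpl45, which lies at the exit of the protein tunnel and faces the inner membrane, had medians of 54.2 and 76.3 CPM and a difference of -0.55 ± 0.12 (edgeR adjusted p = 0.000180). Mrpl1, a protein of the stalk through which the transfer RNA leaves, had medians of 16.1 and 25.9 CPM and a difference of -0.56 ± 0.19 (edgeR adjusted p = 0.00960). In PCB52 animals Mrpl58 differed by -1.06, Mrpl50 by -1.12, Mrpl45 by -0.91 and Mrpl1 by -0.84, each past the threshold. With the cytosolic list mean as a covariate these were -0.61, -0.72, -0.60 and -0.35, and all 4 still passed.

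The remaining genes chosen for their role fell on both sides of the threshold. Mrps30, which lies in the large subunit, and Mrpl44, a large-subunit relative of RNase III, were lower in striatum in sham animals by -0.29 ± 0.11 and -0.37 ± 0.12 (edgeR adjusted p = 0.0163 and 0.00702) and in PCB52 animals by -0.57 and -0.72. Mrpl12 and Mrpl10 form the flexible stalk that recruits translation factors. Mrpl12 did not pass in sham animals (-0.15 ± 0.18) and was lower in striatum in PCB52 animals (-0.73 ± 0.17, edgeR adjusted p = 0.000166), whereas Mrpl10 passed in neither (0.20 ± 0.11 and -0.14 ± 0.11). Mrps12, at the decoding centre, had differences of -0.21 ± 0.18 and -0.68 ± 0.17, of which the second passed (edgeR adjusted p = 0.000475). Without the libraries above 8.8 the PCB52 calls of Mrpl12 (-0.20, edgeR adjusted p = 0.141) and Mrps12 (-0.23, edgeR adjusted p = 0.147) were lost, those of Mrps30 and Mrpl44 were kept, and Mrpl10 was at 0.11. With limma Mrpl10 passed as higher in striatum in sham animals, at 0.19 (limma adjusted p = 0.0240). With the covariate Mrpl10 passed as higher in striatum in both treatments, at 0.18 (edgeR adjusted p = 0.00329) in sham and 0.13 (0.0289) in exposed rats, and Mrpl12 and Mrps12 passed as lower in both.

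The 3 relatives of bacterial S18 also split. Mrps18a differed by -0.16 ± 0.16 in sham and -0.63 ± 0.15 in PCB52 animals, Mrps18c by -0.23 ± 0.21 and -0.86 ± 0.20, and Mrps18b by 0.15 ± 0.15 and -0.30 ± 0.14. In PCB52 animals Mrps18a and Mrps18c passed the threshold (edgeR adjusted p = 0.000307 and 0.000161) and Mrps18b did not (0.0554). Without the libraries above 8.8 neither Mrps18a (-0.20, edgeR adjusted p = 0.142) nor Mrps18c (-0.25, edgeR adjusted p = 0.141) passed, and Mrps18b was at 0.04. With the covariate Mrps18a and Mrps18c passed as lower in both treatments. Mrps18b passed as lower in PCB52 animals without cerebellum females 14 or 22 or males 13 or 21, or striatum female 18, at edgeR adjusted p of 0.0206 to 0.0416.

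Mrpl54 and Mrps21 were higher in striatum in sham animals. In the fit of all libraries they did not pass in PCB52 animals, and they are named because they were the only 2 in this direction in sham animals, after their values were seen. Mrpl54, a mitochondria-specific large-subunit protein, ran from 29.8 to 68.3 CPM in striatum (median 40.6, n = 10) and from 18.8 to 35.2 CPM in cerebellum (median 25.3, n = 11). The ranges overlapped between 29.8 and 35.2 CPM, and the log2 difference was 0.72 ± 0.22 (SE, edgeR adjusted p = 0.00403). In PCB52 animals its cerebellar values spread from 17.8 to 94.3 CPM and the difference was 0.05 ± 0.21 (edgeR adjusted p = 0.827). It passed as higher in striatum under 3 alternatives: 0.72 with the cytosolic list mean as a covariate, 0.39 with limma and 0.69 without the libraries above 8.8 (adjusted p = 2.00e-11, 0.00819 and 0.000227). Mrps21, a bacterial-type small-subunit protein, had sham medians of 38.6 CPM in striatum and 29.1 CPM in cerebellum and a difference of 0.38 ± 0.17 (edgeR adjusted p = 0.0397). That call was lost in 8 of the fits that left out 1 library: without cerebellum sham females 2, 4 or 10 or sham males 1, 7 or 11, or striatum sham female 12 or male 9, the edgeR adjusted p was 0.0511 to 0.0832. It was also lost without the libraries holding markers of another tissue (0.28, edgeR adjusted p = 0.181) and without those holding transcripts of both sexes (0.37, edgeR adjusted p = 0.128). In PCB52 animals the Mrps21 difference was -0.18 ± 0.16 (edgeR adjusted p = 0.293). It passed as higher in striatum without the libraries above 8.8, at 0.34, and with the covariate, at 0.31 (edgeR adjusted p = 0.00772 and 6.91e-06).

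**Figure D4:**
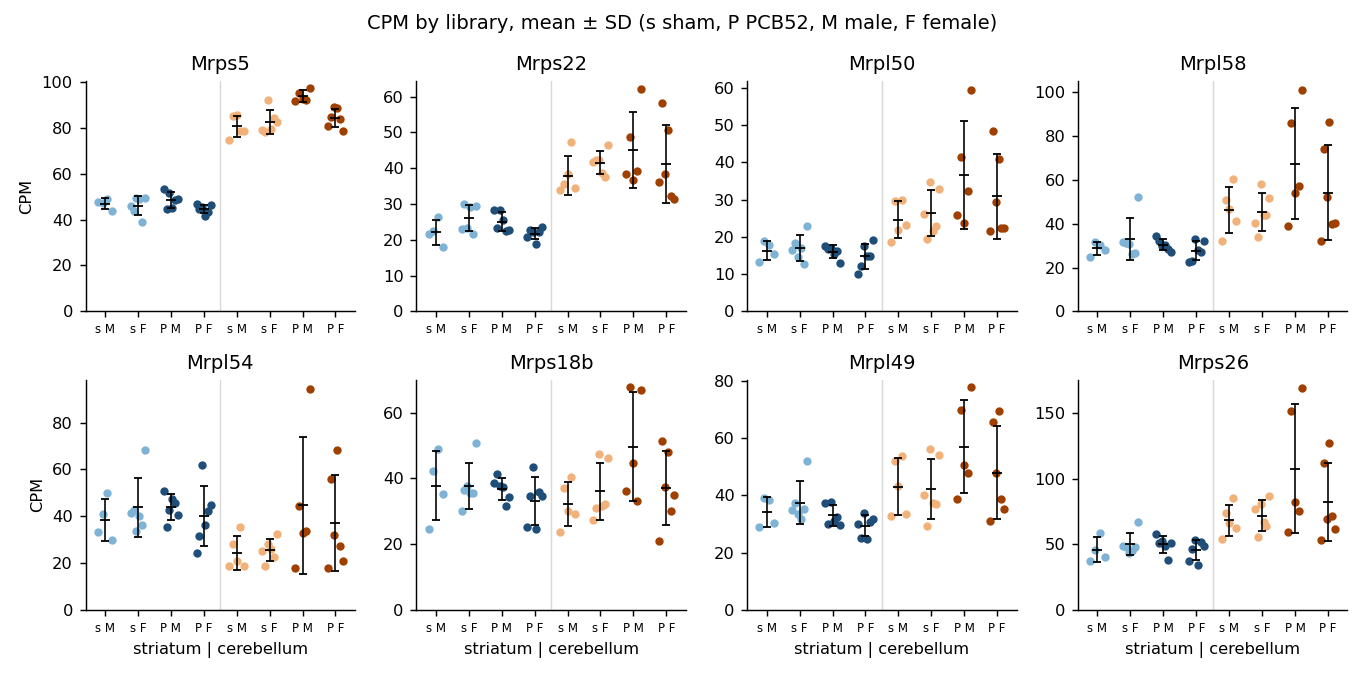
CPM (y axis, from 0) of 8 mitochondrial ribosomal protein genes in each library, by sex and treatment with striatum left and cerebellum right of the line (x axis), and the group mean ± SD. Mrps5 lies at 38.8 to 53.5 in striatum and 74.6 to 97.5 in cerebellum, while the other genes scatter most in the PCB52 cerebellar groups.

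Genes that act with these proteins were read from lists of the same pathway, whose counts stand beside 35.5% lower and 34.3% higher among all genes in sham animals and 40.4% and 36.5% in PCB52 animals. In sham animals 12 of 27 tested genes of mitochondrial ribosome assembly and ribosomal RNA modification were lower in striatum and 3 higher, with Rpusd4 (-0.63), a pseudouridine synthase, and Ybey (-0.60) lowest and Tfb1m (0.80), the dimethyltransferase of the small ribosomal RNA, and Mtg2 (0.65), a GTPase, highest. Of 18 translation factors 8 were lower and 3 higher, with Mtrf1l (-0.63), a release factor, and Gfm1 (-0.59), the elongation factor that moves the ribosome along, lowest and Mrrf (0.35) and Gfm2 (0.35), which recycle it, highest. Of 10 genes of mitochondrial transcription and DNA 7 were lower, among them Tfb2m (-0.74) and Polg2 (-0.90), and Twnk (0.66), the DNA helicase, was higher. The list of mitochondrial aminoacyl-tRNA synthetases split into 6 lower and 5 higher of 19, from Kars1 (-0.64) and Aars2 (-0.63) to Nars2 (0.40) and Pars2 (0.56). Among the 6 lower, Qrsl1 and Gatc encode amidotransferase subunits rather than synthetases, and Kars1 and Gars1 encode the cytosolic enzyme as well. Of 5 ribosomal proteins whose symbols carry neither prefix, Ptcd3 alone was lower (-0.58). In PCB52 animals the counts were 21 lower and 2 higher of the 27 assembly genes and 11 lower and 3 higher of the 18 factors. Cytosolic ribosomal protein genes counted 6 lower and 10 higher of 74 in sham animals and 58 lower and 1 higher in PCB52 animals. In both treatments all 10 oligodendrocyte, 8 microglial and 7 tested endothelial markers were higher in striatum, and their part in these differences was not tested.

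By animal number, both regions were sequenced in 21 rats. Among sham animals, the striatal library of male 3 and the cerebellar libraries of 8, 9, 10 and 11 held transcripts of both sexes. The library of the other region did not. For males 9 and 11, Xist lay at 0.605 and 1.11 CPM in striatum and at 265 and 314 CPM in cerebellum. Whether both libraries of these animals come from the same rat is therefore in doubt. The list mean of the mitochondrial ribosomal genes was lower in striatum than in cerebellum in 7 of 10 sham animals, by differences from -0.45 to 0.09 (median -0.17), and in 10 of 11 PCB52 animals, from -1.46 to 0.17 (median -0.42). The PCB52 animals with the largest gaps were male 23 (-1.46), females 20 (-1.25) and 16 (-1.15) and male 15 (-0.95), and the other 7 lay between -0.44 and 0.17. Sham male 1 and sham females 4 and 12 had list means slightly higher in striatum.

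The difference between the regional effects of PCB52 was tested directly. The striatal minus the cerebellar log2 effect was negative for 70 of 70 genes, with a median of -0.47 against -0.01 over all genes, and 46 had an unadjusted p under 0.05 (65.7%, against 18.3% of all genes). After adjustment 0 genes of 12446 passed in edgeR (0% of all genes), and the lowest adjusted p among the 70 was 0.268. DESeq2 called 3 genes and limma 0, none of them among the 70. Mrpl21, a bacterial-type large-subunit protein, had -0.60 ± 0.21 and Mrps35, a mitochondria-specific small-subunit protein, -0.60 ± 0.22 (SE, edgeR adjusted p = 0.268 for both). Cytosolic ribosomal genes had a median of -0.69 with 74 of 74 negative. The median of the 70 was 0.02 without the 5 libraries whose cytosolic ribosomal list mean exceeded 8.8, with 41 positive and 29 negative. Those 5 include cerebellum PCB52 males 15 and 23 and females 16 and 20, the highest for the 70 genes themselves. That fit therefore cannot decide whether the effects differ.

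In cerebellum the question was what PCB52 did within each sex. Sham males 9 and 11 and sham females 8 and 10, which held transcripts of both sexes, stay in the main fits under their labelled sex. In males, 70 of 70 genes were higher in PCB52 than in sham animals, with a median log2 difference of 0.50 against 0.01 over all genes, and 0 passed the threshold (0% of 11690 genes passed in edgeR). An unadjusted p under 0.05 was found for 18 of the 70 (25.7%) and for 1673 of all genes (14.3%). DESeq2 called 1 gene and limma 0, none among the 70. The 74 cytosolic ribosomal genes were likewise 74 of 74 higher (median 0.75), whereas 11 of 18 translation factors and 10 of 19 genes of the synthetase list were higher (medians 0.07 and 0.03).

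Mrps5 had the lowest p. Its level was 74.6, 78.7, 78.8, 85.4 and 85.5 CPM in the 5 sham males and 91.8, 92.2, 92.6, 95.3 and 97.5 CPM in the 5 PCB52 males. Every exposed male lay above every sham male, though sham males 9 and 11 held transcripts of both sexes. The log2 difference was 0.20 ± 0.06 (SE), 1.15-fold, with an unadjusted p of 0.00451 and an edgeR adjusted p of 0.313. It lay between 0.18 and 0.23 when libraries were left out 1 at a time. In females it ran from 78.0 to 92.1 CPM in sham (median 81.0) and 78.7 to 89.0 CPM in PCB52 animals (median 84.3), which overlapped throughout. The female minus male effect was -0.20 ± 0.09 (SE, edgeR adjusted p = 0.774).

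In the next 3 genes by p, males 15 and 23 stood above the other exposed males. Mrps18b was 23.7, 29.1, 30.2, 37.1 and 40.6 CPM in sham males and 33.2, 36.3, 44.6, 66.8 and 67.7 CPM in PCB52 males, with 2 of the other 3 exposed males inside the sham range. Its difference was 0.61 ± 0.24 (SE, edgeR adjusted p = 0.313). Mrps11, which shares its start region with Mrpl46, was 28.8, 32.6, 37.4, 41.5 and 43.5 CPM in sham and 38.0, 44.6, 50.9, 65.7 and 79.4 CPM in PCB52 males, a difference of 0.58 ± 0.23. Mrps26 was 53.9, 62.5, 66.5, 73.5 and 85.5 CPM against 59.4, 75.8, 82.5, 152 and 169 CPM, a difference of 0.63 ± 0.26. For all 3 genes the groups overlapped.

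Without cerebellum PCB52 male 23 the male median of the 70 genes went from 0.50 to 0.27, and without the libraries with a cytosolic ribosomal list mean above 8.8 to 0.07, with 51 genes higher and 19 lower. With the cytosolic list mean as a covariate it was -0.01. That list followed nearly the same order of libraries as the 70 genes, and the cut at 8.8 takes out males 15 and 23, the highest for both. Neither fit can therefore show whether PCB52 raised both lists. Choroid plexus markers moved the opposite way, 0 of 7 tested higher (median -1.23), with list means of 1.09 to 5.26 in sham males, the highest in sham male 1, and 1.06 to 1.32 in PCB52 males. Without libraries with markers of another tissue, sham male 1 among them, the median was 0.41 and 70 of 70 genes were higher.

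In the female cerebellum 68 of 70 genes were higher in PCB52 animals, with a median of 0.16 against 0.02 over all genes, 0 had an unadjusted p under 0.05 (3.16% of all genes), and 0 passed the threshold (0% of all genes in edgeR, 0 in limma and 10 genes, none of the 70, in DESeq2). Mrpl21 had sham values of 20.5 to 32.3 CPM (median 25.0) and PCB52 values of 23.6 to 48.3 CPM (median 28.6), a difference of 0.34 ± 0.22 (SE, edgeR adjusted p = 1.00). Mrpl54 ran from 18.8 to 32.6 CPM (median 25.6) and from 17.8 to 68.5 CPM (median 29.6), with 0.50 ± 0.34, Mrps2 differed by 0.12 ± 0.09 and Mrps21 by 0.33 ± 0.27. The groups overlapped for all 4, and females 16 and 20 were the highest for Mrpl54. The median of the 70 was 0.01 without female 20, 0.05 without female 16 and 0.26 without female 14, and -0.19, with 3 genes higher and 67 lower, without females 16 and 20 and the other libraries above 8.8. The thalamic, septal and hypothalamic markers of female 16 were not tested for a part in this. Oligodendrocyte markers were lower in 10 of 10 (median -0.54), and their part in the result was not tested.

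Over both sexes 70 of 70 genes were higher in the PCB52 cerebellum, with a median of 0.34 and 22 unadjusted p under 0.05 (31.4%, against 14.8% of all genes), and 0 of 70 passed (0% of all genes in edgeR, 0 in limma and 23 genes, none of the 70, in DESeq2). Mrpl54 (0.68 ± 0.25) and Mrpl21 (0.43 ± 0.17) had the lowest p, with edgeR adjusted p = 0.326 for both. Without male 23 the median was 0.22, and it was -0.05 without the libraries above 8.8. The female minus male effect had a median of -0.32 and was negative for 69 of 70 genes, with 1 unadjusted p under 0.05 and 0 passing (0% of all genes in edgeR, 0 in limma, 4 genes in DESeq2, none of the 70). It was -0.59 ± 0.32 for Mrps18b, and the median was -0.10 without male 23 and -0.21 without female 14. The sham libraries with transcripts of both sexes stay in each of these fits.

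**Figure D5:**
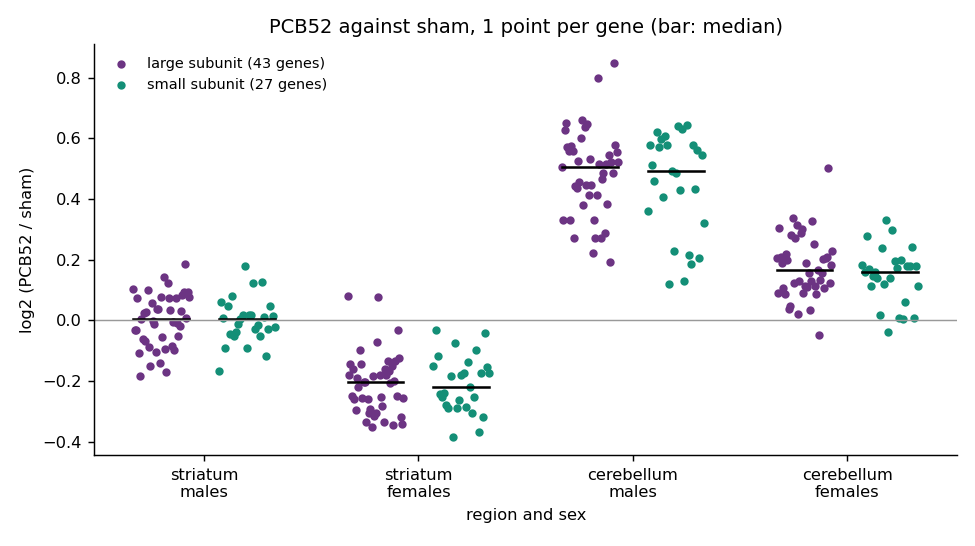
Log2 difference of PCB52 from sham (y axis) for each gene, Mrpl (43) and Mrps symbols (27) side by side, in each region and sex (x axis), with bars at the medians. The medians of both sets lie near 0 in striatal males, below it in striatal females and above it in the cerebellum of both sexes. None of the points passed an adjusted p of 0.05.

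In striatum the directions differed from those in cerebellum. In females 68 of 70 genes were lower in PCB52 than in sham animals, with a median log2 difference of -0.21 against -0.002 over all genes. An unadjusted p under 0.05 was found for 16 (22.9%, against 13.4%, 1633 genes, of all), and 0 of 70 passed (0% of 12142 genes in edgeR). DESeq2 called 24 genes and limma 0, none among the 70. Mrpl and Mrps genes had medians of -0.20 and -0.22. Assembly genes were lower in 22 of 27 (median -0.07) and genes of the synthetase list in 8 of 19 (median 0.02), while cytosolic ribosomal genes were lower in 74 of 74 (median -0.32).

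Mrpl49, a mitochondria-specific large-subunit protein, had the lowest p. Sham females ran from 31.8 to 52.1 CPM (median 35.1) and PCB52 females from 24.9 to 34.0 CPM (median 30.4). The groups overlapped at 31.8 to 34.0 CPM, with sham female 12 highest at 52.1. The log2 difference was -0.35 ± 0.12 (SE, unadjusted p 0.00930, edgeR adjusted p = 0.304). Fau, its neighbour across the shared start, differed by -0.31 ± 0.18 (edgeR adjusted p = 0.419). Mrpl3, near the peptidyl transferase centre, had medians of 80.1 and 66.2 CPM and a difference of -0.31 ± 0.12, Mrps30 ran from 42.2 to 56.8 and from 32.2 to 49.3 CPM and differed by -0.25 ± 0.10, and Mrpl16, a neighbour of the same centre, 25.6 and 20.7 CPM and -0.30 ± 0.12, each with overlapping groups.

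Without sham female 12 the female median was -0.09. Without libraries holding markers of another tissue (sham females 6 and 12 and PCB52 females 14, 20 and 22) it was 0.02, with 43 genes higher and 27 lower. PCB52 female 24 stays in that fit, though it had the highest striatal level of the cortical marker Slc17a7, 361 CPM against a median of 26.4. Choroid plexus markers were higher in 8 of 8 tested (median 3.88), with list means of 0.43 to 1.62 in sham and 0.46 to 7.66 in PCB52 females. Cortical neuron markers were higher in 7 of 8 (median 0.47), with list means of 0.44 to 3.96 and 0.71 to 5.01. Cerebellar granule and Purkinje cell markers were higher in 7 of 8 (median 0.96). Olfactory bulb markers were lower in 3 of 3 (median -1.91), with the highest list mean, 3.46, in sham female 12. Striatal projection neuron markers were lower in 12 of 12 (median -0.26), with list means of 9.47 to 9.94 in sham and 8.71 to 9.82 in PCB52 females. The part of these markers in the ribosomal values was not tested beyond these fits.

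In striatal males the directions were mixed. Of the 70 genes 36 were higher in PCB52 animals and 34 lower, with a median of 0.00, 0 unadjusted p under 0.05 (0.898% of all genes) and 0 passing (0% in edgeR, 0 in limma, 1 gene, not of the 70, in DESeq2). Mrpl38 was 37.4 to 44.7 CPM in the 4 sham males and 41.7 to 49.5 CPM in the 6 PCB52 males (0.14 ± 0.10, edgeR adjusted p = 1.00). Mrps22 had 0.18 ± 0.12, Mrpl40 -0.17 ± 0.12 and Mrpl15 -0.18 ± 0.15. The median moved from -0.08 without sham male 1 to 0.11 without sham male 9, so its sign rested on single animals, and leaving out each of the other 8 gave values between these.

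Over both sexes the striatal median was -0.11, with 63 of 70 genes lower and 5 unadjusted p under 0.05 (7.14%, against 704 of all 12142 genes), and 0 passed (0% of all genes in edgeR, 0 in DESeq2 and limma). Mrpl40 (-0.21 ± 0.08) and Mrpl35 (-0.23 ± 0.10) had the lowest p (edgeR adjusted p = 0.774 for both). Without sham female 12 the median was -0.05, without sham male 9 -0.07, and without libraries with markers of another tissue it was 0.02. The female minus male effect was negative for 69 of 70 genes (median -0.19, 0 passing, 0% of all genes in edgeR, 0 in DESeq2 and limma, 1 of the 70 and 471 genes at an unadjusted p under 0.05). Mrps22 had -0.44 ± 0.16 and Mrpl36, a small bacterial-type protein of the large subunit, -0.38 ± 0.19 (edgeR adjusted p = 0.914 for both). The median was -0.07 without sham female 12, -0.12 without sham male 1, -0.30 without sham male 9, and 0.03 without libraries with markers of another tissue.

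Females and males were compared within each treatment, and 0 of the 70 genes passed in any of these 4 comparisons by edgeR, DESeq2 or limma (0.0329% and 0.0412% of all genes passed in sham and PCB52 striatum in edgeR, and 0% in cerebellum). In cerebellum the sex genes themselves did not pass in edgeR. Xist lay at 178 CPM or more in PCB52 females and at most 0.26 CPM in PCB52 males, yet the lowest edgeR adjusted p of any gene was 0.0758. Cerebellum sham males 9 and 11 and sham females 8 and 10 held transcripts of both sexes. The cerebellar tests therefore cannot show that the 70 genes are alike in the sexes. In sham animals the female minus male medians were 0.08 in striatum and 0.04 in cerebellum, and in PCB52 animals -0.12 and -0.27. In the PCB52 cerebellum 69 of 70 genes were lower in females and 1 of the 70 had an unadjusted p under 0.05, Mrps5 (-0.16 ± 0.06, edgeR adjusted p = 0.708). The genes of lowest p in the other 3 were Mrps22 in sham striatum (0.23 ± 0.12), Mrpl57 in PCB52 striatum (-0.32 ± 0.16) and Mrpl47 in sham cerebellum (0.19 ± 0.14), with 0 unadjusted p under 0.05 among the 70. With the cytosolic list mean as a covariate the medians of PCB52 animals were 0.02 in striatum and 0.01 in cerebellum, and that of sham striatum was -0.01. Without libraries with markers of another tissue they were -0.03 in PCB52 striatum, -0.04 in sham striatum and -0.05 in sham cerebellum. Single libraries moved these medians. In sham striatum they ran from -0.02 without female 12 to 0.19 without male 9, with 0.03 without male 1, 0.05 without male 11, 0.13 without male 3 and 0.13 without female 10. In sham cerebellum they ran from -0.05 without male 1 to 0.13 without male 9, and were negative also without females 6 or 12. In PCB52 striatum they were -0.06 without female 14 or male 13 and -0.19 without female 18, and in PCB52 cerebellum -0.06 without male 23, -0.41 without male 13 and -0.43 without female 20.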

How the data were processed

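RNA-seq was analysed from 44 libraries of 47 labelled samples, leaving out 1 cerebellar (sham male 5) and 2 striatal libraries (sham males 5 and 7), which were not analysed here. The values are raw counts per gene as deposited by the authors, 1 table per region. Per the submitters' processing notes FastQC and HISAT2 were used with rn6; their versions, the counter, the annotation and the strand setting were not given in the sources used here. Entrez IDs were matched to symbols with a RefSeq GRCr8 gene table (15230 of 15319, 99.4%). The members and lists were chosen with earlier results of these data known.

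Counts were scaled by TMM, filtered with edgeR's default low-count rule and tested two-sided with the quasi-likelihood method of edgeR 4.0.16 in R 4.3.3, with group means of 1 region, or of both regions for regional comparisons. P-values were adjusted by Benjamini-Hochberg over all genes tested, with a threshold of 0.05. P-values within a region measure the spread between these animals. The main regional fits treat both libraries of an animal as independent. CPM use TMM-adjusted library totals, and list means average log2 CPM, computed with a prior count of 2, over genes. Alternatives were DESeq2 1.42.0, limma 3.58.1 (voom with sample weights), other scalings, no filter, only the groups compared, each library left out, omission of libraries holding transcripts of both sexes (Xist as well as Eif2s3y over 3 CPM) or markers of another tissue, and the animal as a block. The cytosolic ribosomal list mean as a covariate, and leaving out the 5 libraries where it exceeds 8.8, were added after seeing the data. The fits were tested on simulated data.

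Both regions came from the same animal in 21 cases, by the animal number in the titles. That pairing is in doubt for sham animals 3, 8, 9, 10 and 11, where only 1 region held transcripts of both sexes. Deviations of the paired regions from the group means correlated at -0.378 to 0.494 (median 0.0912), against a median of 0.00807 for different animals. The animal's own cerebellar library was the best match of its striatal one in 3 of the 21 cases.

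Genes named are, for the regions, the 8 members with the largest sham difference among those past the threshold in the same direction in both treatments, the members of lowest unadjusted p in other comparisons (4 per sex and region, 2 for differences of effects, 1 per sex comparison), 10 members chosen for their role, and 2 genes per direction and pathway list. The 2 of lowest p are also named for both sexes together. A planned comparison of levels between genes per kilobase was not made, since no lengths were used here.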

Additional observations from a re-analysis of the deposited data

Results flagged for a closer look

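In groups of 4 to 10 libraries, a highest or lowest library was marked when its gap to the next exceeded Dixon's 95% critical value. Of 216 groups tested, over 26 named members and the list mean, 15 were marked (6.94%). Chance marks about 1 in 20. Since these genes vary together in the same libraries and were named from these data, the share cannot be weighed against that rate. Striatum sham female 12 was the highest sham female in 10 of the 15. Its list mean was 5.71, against 5.04 to 5.17 in the other 5 sham females. Its levels were 54.2 CPM for Mrpl15, 52.1 CPM for Mrpl49, 68.3 CPM for Mrpl54, 55.7 CPM for Mrpl57 and 52.1 CPM for Mrpl58. For the small subunit they were 45.5 CPM for Mrps11, 50.6 CPM for Mrps18b, 56.0 CPM for Mrps21 and 67.2 CPM for Mrps26. Striatum PCB52 male 13 was the highest exposed male for Mrpl15 (46.8 CPM), Mrpl21 (25.8 CPM) and Mrpl45 (61.1 CPM). Striatum PCB52 male 23 was the lowest exposed male for Mrpl3 (63.7 CPM), and striatum PCB52 female 18 the highest exposed female for Mrps11 (39.9 CPM).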

How the results depend on the processing

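No member passed the threshold in an exposure or sex comparison under any alternative run. The lower striatal levels of the 8 genes named first for the regions kept their direction and call in each. Genes named from pathway lists, lower or higher in striatum, also kept theirs in sham animals, the only regional comparison in which alternatives were recomputed for them. In the main PCB52 fit Pars2 did not pass (0.25, edgeR adjusted p = 0.0518). DESeq2 called 24 genes in striatal females, 1 in striatal males, 10 in cerebellar females, 1 in cerebellar males, 23 over both sexes in cerebellum, 4 for the cerebellar female minus male effect, 3 for the regional difference of effects and 9 between the PCB52 sexes in cerebellum, each against 0 in edgeR. That last count was 2 with limma, 4 with only the groups compared, 5 without libraries holding transcripts of both sexes, and 1 without other-tissue libraries or with the cytosolic list mean as a covariate. The sham cerebellar sexes gave 4 genes without both-sex libraries and 0 to 2 without single libraries (2 without sham female 8), the sham striatal sexes 2 with only the groups compared, and the PCB52 striatal sexes 3 without other-tissue libraries. With that covariate the member median was -0.0060 in cerebellar males, -0.24 for the regions in PCB52 animals and -0.0051 for the regional difference of effects, and without libraries above 8.8 it was 0.075, -0.24 and 0.016. The striatal female minus male median was 0.034 without other-tissue libraries. Members past the threshold between sham regions numbered 53 with the covariate and 40 with limma or without libraries above 8.8, and 23 to 30 when single libraries were left out. With the animal as a replicate block they numbered 24 in sham and 51 in PCB52 animals, with medians of -0.20 and -0.57, the difference of effects had a median of -0.41 with 0 called, and the block changed no call of a named gene. That block pairs libraries by animal number and includes the sham animals whose pairing is in doubt. Without libraries above 8.8, Mrpl54 and Mrps21 in cerebellar females were -0.066 and -0.098. Between the regions in PCB52 animals, Mrpl54 ran from -0.050 to 0.28 when single libraries were left out, and was 0.72 with the covariate, 0.39 with limma and 0.69 without libraries above 8.8. Mrps21 was 0.31, 0.15 and 0.34 in these. Mrpl10 and Mrps18b, at -0.14 and -0.30 in PCB52 animals, were 0.13 and 0.069 with the covariate and 0.11 and 0.043 without libraries above 8.8, where Mrpl12, Mrps12, Mrps18a and Mrps18c lost their calls. The cause of these shifts was not tested. The lowest count of a member in a library was 52, where counting error is largest.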
